A study of Bos taurus with 96 samples.

Results

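The genes described here differed from cow to cow in the same way in liver and in skeletal muscle. For each gene the level was averaged over 3 time-points in each cow and tissue as log2(CPM + 1), where CPM is read pairs in every 1000000 counted in the library. The mean of the fertility group was subtracted, and liver was correlated with muscle over the 16 cows. A gene was a member if its mean CPM was at least 1 in each tissue and its Pearson r was above 0.8. By this rule 36 of 10416 genes that passed the level filter were members (0.346%), out of 24616 genes in the count files, with 8 identifiers left out as the rule states. The members were chosen by this correlation of measured values, so their r is a description and no test of it is given.

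The cows were Holstein, 8 with good genetic merit for fertility (Fert+) and 8 with poor genetic merit (Fert-), with similar genetic merit for milk production. They were kept in a single herd, had different sires and differing parities, and were not bred in the sampled lactation. Each cow gave a puncture biopsy of liver and a punch biopsy of the semitendinosus muscle. Both were taken in late pregnancy (LP), early lactation (EL) and mid lactation (ML), which makes 96 libraries in 12 groups of 8. Fert+ and Fert- are sets of animals chosen on the estimated breeding value for calving interval, not by a treatment or a known allele. Alleles of single cows were not examined here. In bulk tissue, fewer cells of a type and less RNA per cell cannot be told apart.

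The level of a transcript in an animal depends on sequence variants near the gene, on variants and signals elsewhere, and on the state of the tissue on the day of sampling. A variant in a promoter, a deleted gene copy or a change in splicing is carried by every cell, so its effect can appear in unrelated tissues and at every sampling. Differences in feeding, hormones or infection can change with time, and can act on a single tissue or on several. Which of these lies behind the members was not tested. Ribosomal protein genes, MHC genes and interferon-inducible genes belong to families with many close copies, in which copies can be present, silent or read in place of each other in different animals.

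The 48 liver libraries held 14966847 to 26358063 counted read pairs (median 20466944) and the 48 muscle libraries 15279337 to 22018740 (median 17612182). The tissue labels matched their markers. Albumin (ALB) lay between 7935 and 140806 CPM in liver and had a median of 0.610 CPM in muscle, with 101 CPM in the highest muscle library. Muscle creatine kinase (CKM) lay between 5702 and 24465 CPM in muscle and did not exceed 0.142 CPM in liver. The summed level of the hepatocyte list in muscle was 2.71 to 260 CPM and that of the muscle fibre list in liver 0.127 to 4.22 CPM.

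Members went against the cow label of a pair of liver libraries. Over the 36 members, 46 of 48 liver libraries and 48 of 48 muscle libraries were most like the libraries of the same cow in the other tissue. The liver library labelled cow 829 at LP was nearest to cow 3434 (r = 0.664, against at most 0.334 with cow 829), and the liver library labelled cow 3434 at EL was nearest to cow 829 (r = 0.783, against at most 0.452 with cow 3434). These 2 libraries were kept with their labels, none was reassigned, and the counts of members and the genes that moved most with them are also given without them. Leaving them out changed the r of a member by between -0.059 and 0.059, upwards in 17 members and downwards in 19. The members were themselves chosen with these labels, and checks over genes that are no members, tried after the data were seen, did not assign the libraries to cows cleanly. A time-point score was taken from 100 genes that rose and 100 that fell from LP to EL in the other cows. In liver it put 11 of 16 EL libraries and 2 of 16 LP libraries on the EL side. Those LP libraries were of cows 426 (1.74) and 430 (0.333). The EL libraries on the LP side were those labelled cows 426 (-1.08), 3434 (-1.24), 33 (-0.473), 996 (-0.433) and 1000 (-0.618). The LP library labelled cow 829 lay on the LP side (-0.444). The score thus did not separate LP from EL cleanly in liver.

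Across all genes that passed the level filter, liver and muscle shared little of the difference between cows. The median r was 0.103, with 10% of genes below -0.304 and 10% above 0.479. Only 1 gene fell below -0.8 (r = -0.861), against 36 above 0.8. Above 0.5 there were 892 genes and below -0.5 there were 229. The members were expressed at moderate levels, with a median over members of 8.94 CPM in liver and 5.31 CPM in muscle, beside 14.8 and 12.9 CPM over all genes. The members also varied more between cows, which a high r needs. The SD of the centred log2 level over cows had a median of 0.52 in liver and 0.42 in muscle, beside 0.19 in each tissue over all genes. Of the 36 members 23 had the higher mean CPM in liver and 13 in muscle.

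**Figure D1:**
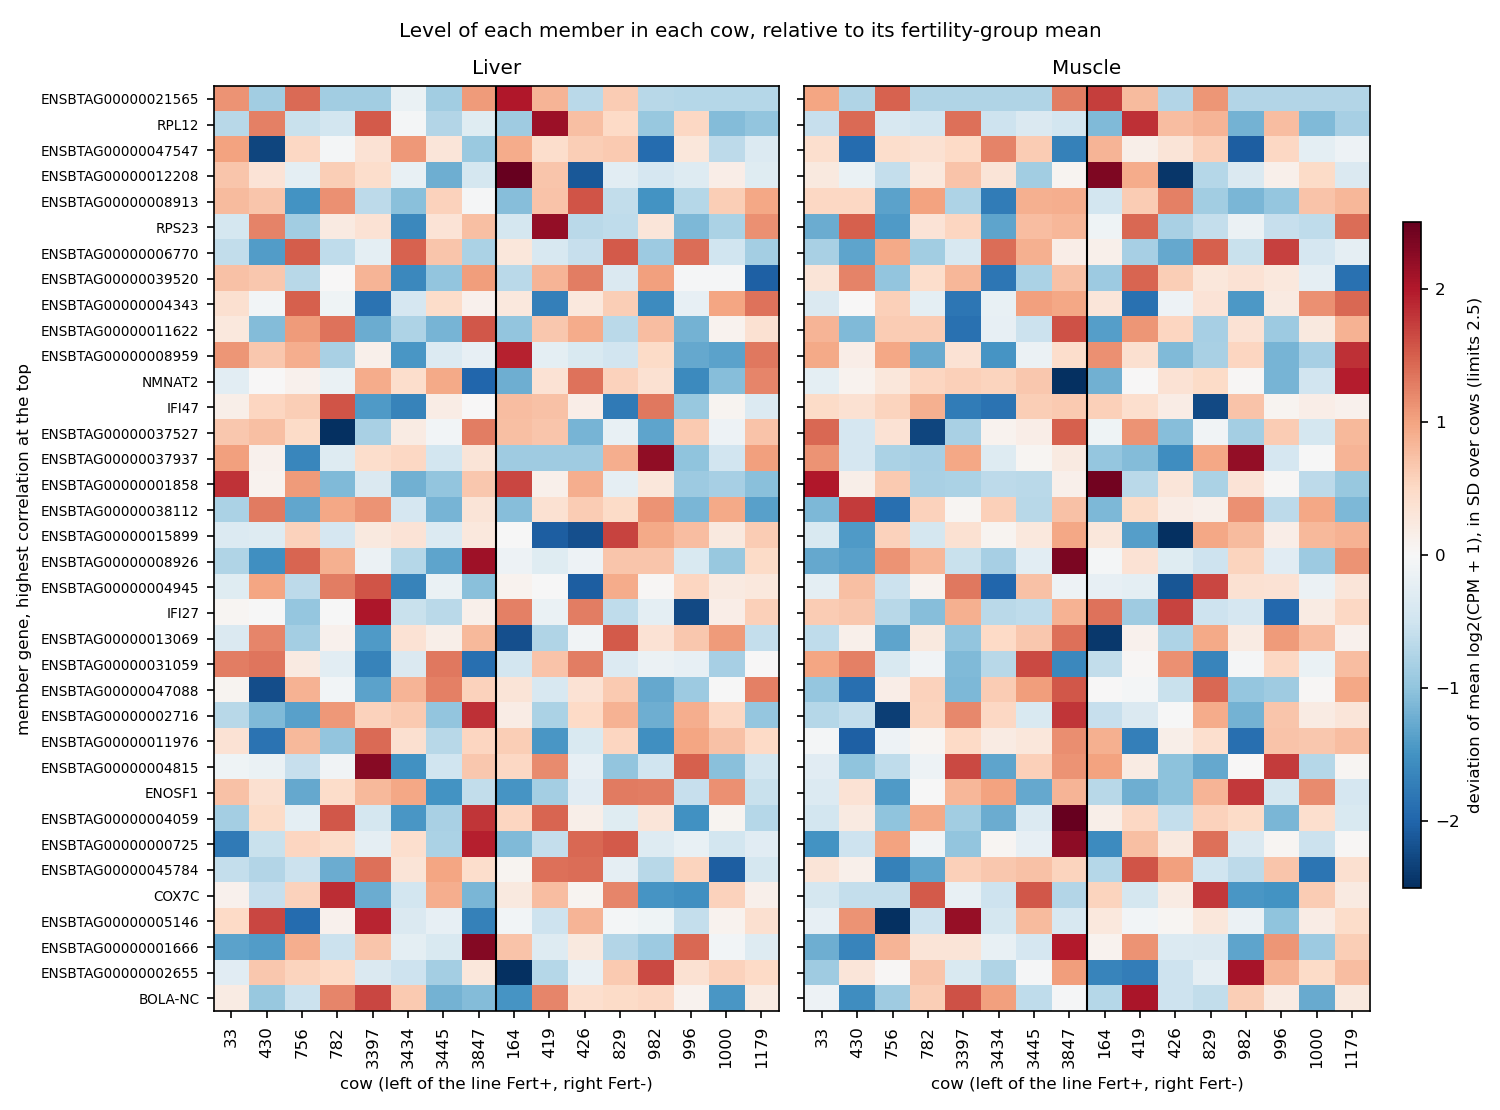
Deviation of each cow from the mean of its fertility group for the 36 members, in SD of the gene in that tissue, with liver and muscle side by side and the colour scale ending at 2.5 SD. A row keeps its pattern of high and low cows from liver to muscle, and rows differ in which cows are high.

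The gene symbols used here come from names that the study paired with identifiers. They name 8 members, and the other 28 are given by Ensembl identifier. The named members take part in translation (RPL12, RPS23), respiration (COX7C), interferon response and antigen presentation (IFI47, IFI27, BOLA-NC) and metabolism (NMNAT2, ENOSF1). Cow values below are mean CPM over the 3 libraries of a cow. They are listed for Fert+ cows 33, 430, 756, 782, 3397, 3434, 3445 and 3847 and for Fert- cows 164, 419, 426, 829, 982, 996, 1000 and 1179, in these orders. Sets of cows named for a gene were read from its values and are a description.

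ENSBTAG00000021565 had the highest correlation (r = 0.975, jackknife SE 0.016) and was counted in some cows and not in others. In muscle its CPM was 4.27, 0, 7.30, 0, 0, 0, 0 and 6.21 in the Fert+ cows. It was 9.37, 3.23, 0, 4.66, 0, 0, 0 and 0 in the Fert- cows. Cows 33, 756, 3847, 164, 419 and 829 had 3.08 to 10.3 CPM in each of their 18 muscle libraries (59 to 201 read pairs), and the 30 muscle libraries of the other cows had no read pair. A count of 0 allows up to 3 read pairs, which is at most 0.196 CPM in any muscle library and covers counting error only. Cows 33, 756, 3847, 164, 419 and 829 each also had a library in the set of 13 that counted extra genes, given below.

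In liver the same gene had 11.7, 0, 17.1, 0, 0, 4.23, 0 and 10.6 CPM in the Fert+ cows. The Fert- cows had 30.7, 6.29, 0.0329, 8.33, 0.0197, 0, 0 and 0 CPM. The cows that were high in muscle were high in liver, and the value of cow 3434 stood between them and the rest. That value came from the EL library labelled cow 3434, with 12.6 CPM, while its LP library had 0.0576 CPM and its ML library had no read pair. Cow 829, with 4.01 to 5.28 CPM in muscle, had no read pair in the LP liver library that carries its label and 9.46 and 15.5 CPM at EL and ML. Without these 2 libraries the liver means were 12.5 CPM in cow 829 and 0.0288 CPM in cow 3434, and r was 0.997.

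Among ribosomal protein genes, RPL12 (ENSBTAG00000006963), which encodes a protein of the large ribosomal subunit, had an r of 0.970 (SE 0.013). Its muscle CPM was 2.38, 11.4, 3.03, 2.62, 10.9, 2.55, 2.84 and 2.62 in the Fert+ cows. Among Fert- cows the values were 2.37, 21.8, 10.7, 11.3, 2.30, 10.3, 2.69 and 3.27. Cows 430, 3397, 419, 426, 829 and 996 lay between 7.91 and 26.5 CPM in each muscle library, and all libraries of the other 10 cows at 5.56 CPM or less.

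In liver RPL12 had 1.61, 8.93, 1.83, 1.99, 10.9, 3.91, 1.51 and 2.58 CPM in the Fert+ cows. Fert- cows had 1.81, 23.4, 7.85, 8.44, 1.76, 6.83, 1.47 and 1.64 CPM. The same 6 cows were the highest, and cow 419 was the highest in both tissues. The LP liver library labelled cow 829 had 1.57 CPM and the EL liver library labelled cow 3434 had 8.62 CPM. Without them the means of cows 829 and 3434 were 11.9 and 1.55 CPM, and r was 0.983.

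This RPL12 identifier is one of 3 that carry the symbol. ENSBTAG00000025385 was counted at 151 CPM in liver and 172 CPM in muscle, and its own liver to muscle r was 0.419. Over cows it correlated with the member at -0.055 in liver and -0.141 in muscle. ENSBTAG00000034433 was counted at 1.02 and 1.06 CPM, with an r of 0.159. Which of the near-identical copies a read pair came from is uncertain for such genes, and how reads were divided between them was not tested.

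**Figure D2:**
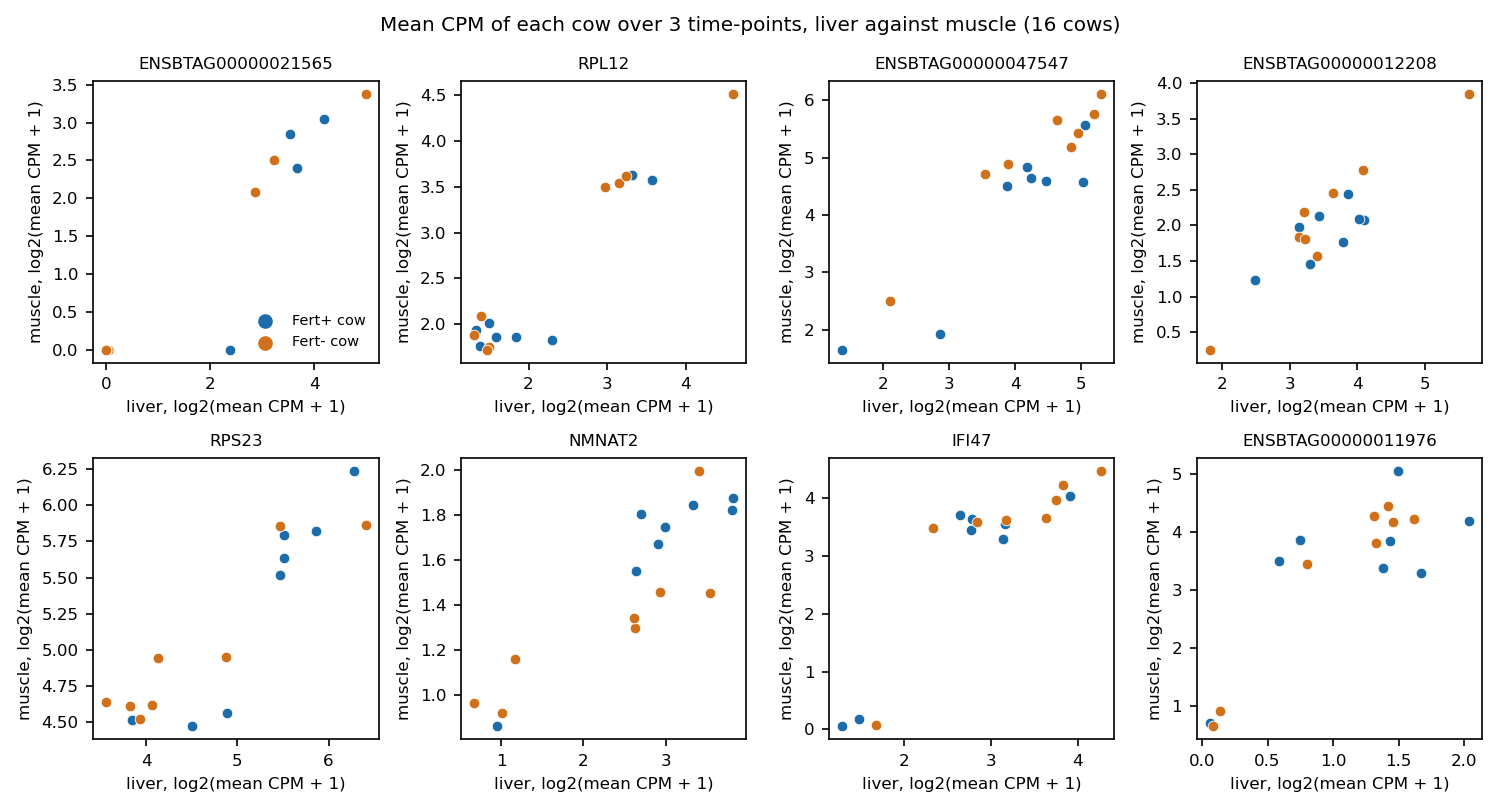
Mean level of a cow in liver (horizontal axis, log2(CPM + 1)) and in muscle (vertical axis, log2(CPM + 1)) for 8 members, with Fert+ cows in blue and Fert- cows in orange and 1 point per cow. For ENSBTAG00000021565, RPL12, IFI47 and ENSBTAG00000011976 the cows fall into a low and a high set in muscle.

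RPS23, a protein of the small ribosomal subunit, had an r of 0.913 (SE 0.032). In liver its CPM was 28.7, 76.4, 21.6, 43.4, 44.8, 13.3, 44.8 and 57.3 in the Fert+ cows. In Fert- cows it was 16.5, 83.8, 14.2, 15.8, 28.3, 10.8, 13.2 and 43.3. In muscle the Fert+ cows had 22.6, 74.4, 21.2, 44.9, 48.6, 21.9, 54.5 and 55.4 CPM. For Fert- cows the CPM was 29.8, 57.2, 21.96, 23.6, 29.9, 23.9, 23.5 and 56.9. Cows 430, 782, 3397, 3445, 3847, 419 and 1179 were the 7 highest in both tissues. The highest cow was 7.75 times the lowest in liver and 3.51 times in muscle. RPS23 also belongs to a family with near-identical copies, so the origin of its reads is uncertain. RPL12 and RPS23 were high in different sets of cows, and only cows 430, 3397 and 419 were in both.

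COX7C (ENSBTAG00000039555), a small subunit of cytochrome c oxidase in the respiratory chain, had an r of 0.820 (SE 0.106). In liver its CPM was 12.8, 9.01, 15.7, 27.1, 6.61, 13.0, 18.2 and 6.94 in the Fert+ cows. The Fert- cows had 27.2, 34.6, 24.7, 45.0, 12.8, 13.0, 31.3 and 25.4 CPM. Muscle of Fert+ cows had 28.5, 27.5, 26.9, 59.7, 31.5, 27.6, 59.9 and 25.5 CPM. Among Fert- cows the values were 63.2, 43.4, 55.3, 98.4, 29.5, 29.0, 64.6 and 55.7. Cow 829 was the highest in both tissues, with 57.2 CPM in liver without the LP library that carries its label. Another identifier with the symbol, ENSBTAG00000040564, had 35.1 CPM in liver and 89.3 CPM in muscle and an r of -0.303 between the tissues. Read placement between these copies is uncertain.

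IFI47, an interferon-inducible GTPase, had an r of 0.888 (SE 0.064). In muscle its CPM was 9.86, 8.76, 10.8, 15.5, 0.137, 0.0388, 11.4 and 12.1 in the Fert+ cows. Fert- cows had 17.6, 14.7, 11.6, 0.0542, 21.2, 10.1, 11.2 and 11.1 CPM. Cows 3397, 3434 and 829 stood apart, with 0 to 4 read pairs in each of their 9 muscle libraries (at most 0.222 CPM), against 134 to 474 read pairs in the other 39 (7.67 CPM or more).

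In liver IFI47 had 5.83, 7.78, 7.93, 13.99, 1.78, 1.43, 5.87 and 5.24 CPM in the Fert+ cows. In Fert- cows it was 13.2, 12.5, 11.5, 2.20, 18.3, 4.01, 7.98 and 6.13. The same 3 cows were the lowest, yet the gene was counted in all of their liver libraries (1.08 to 2.55 CPM), below the other 39 libraries (3.33 to 26.6 CPM). Cows 829 and 3434 are both low for IFI47, so the 2 liver libraries that lie nearest to another cow left its r at 0.891.

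IFI27, an interferon-stimulated gene, had an r of 0.845 (SE 0.097). In liver the Fert+ cows lay between 14.4 and 184 CPM (median 29.4) and the Fert- cows between 12.1 and 189 CPM (median 68.3). In muscle the Fert+ cows lay between 2.16 and 5.39 CPM (median 3.48) and the Fert- cows between 2.57 and 9.94 CPM (median 4.91). By mean CPM cows 426, 3397 and 164 were the 3 highest in liver, each above 100 CPM, and the highest liver library had 395 CPM. Of the variance of IFI27 between libraries 49.4% lay between cows in liver and 10.6% in muscle.

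BOLA-NC, a non-classical MHC class I gene, was the member nearest to the limit (r = 0.801, SE 0.086). In liver its CPM was 21.5, 13.0, 16.2, 35.3, 42.9, 26.9, 11.1 and 12.5 in the Fert+ cows. For Fert- cows the CPM was 17.0, 61.1, 49.4, 42.3, 41.8, 35.1, 16.6 and 36.8. In muscle the Fert+ cows had 7.97, 3.52, 5.19, 11.96, 19.5, 14.8, 6.05 and 8.34 CPM. The Fert- cows had 10.9, 41.7, 11.6, 10.99, 20.7, 16.9, 7.80 and 17.3 CPM. Cow 419 was the highest in both tissues, as for RPL12. MHC class I genes are many and alike, and reads of one can be counted at another.

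NMNAT2, an enzyme of NAD synthesis, had an r of 0.890 (SE 0.060). In liver cows 3847, 164, 996 and 1000 had 0.444 to 1.61 CPM in each of their 12 libraries, and the other 36 libraries had 3.21 to 17.5 CPM. In muscle the same 4 cows had the lowest means, with libraries at 0.295 to 1.77 CPM that overlapped the other 36 at 0.791 to 3.96 CPM. The muscle counts behind these values were 5 to 68 read pairs. ENOSF1, of the enolase superfamily, had an r of 0.824 (SE 0.101). It ranged over cows from 27.1 to 73.5 CPM in liver and from 3.03 to 8.42 CPM in muscle.

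**Figure D3:**
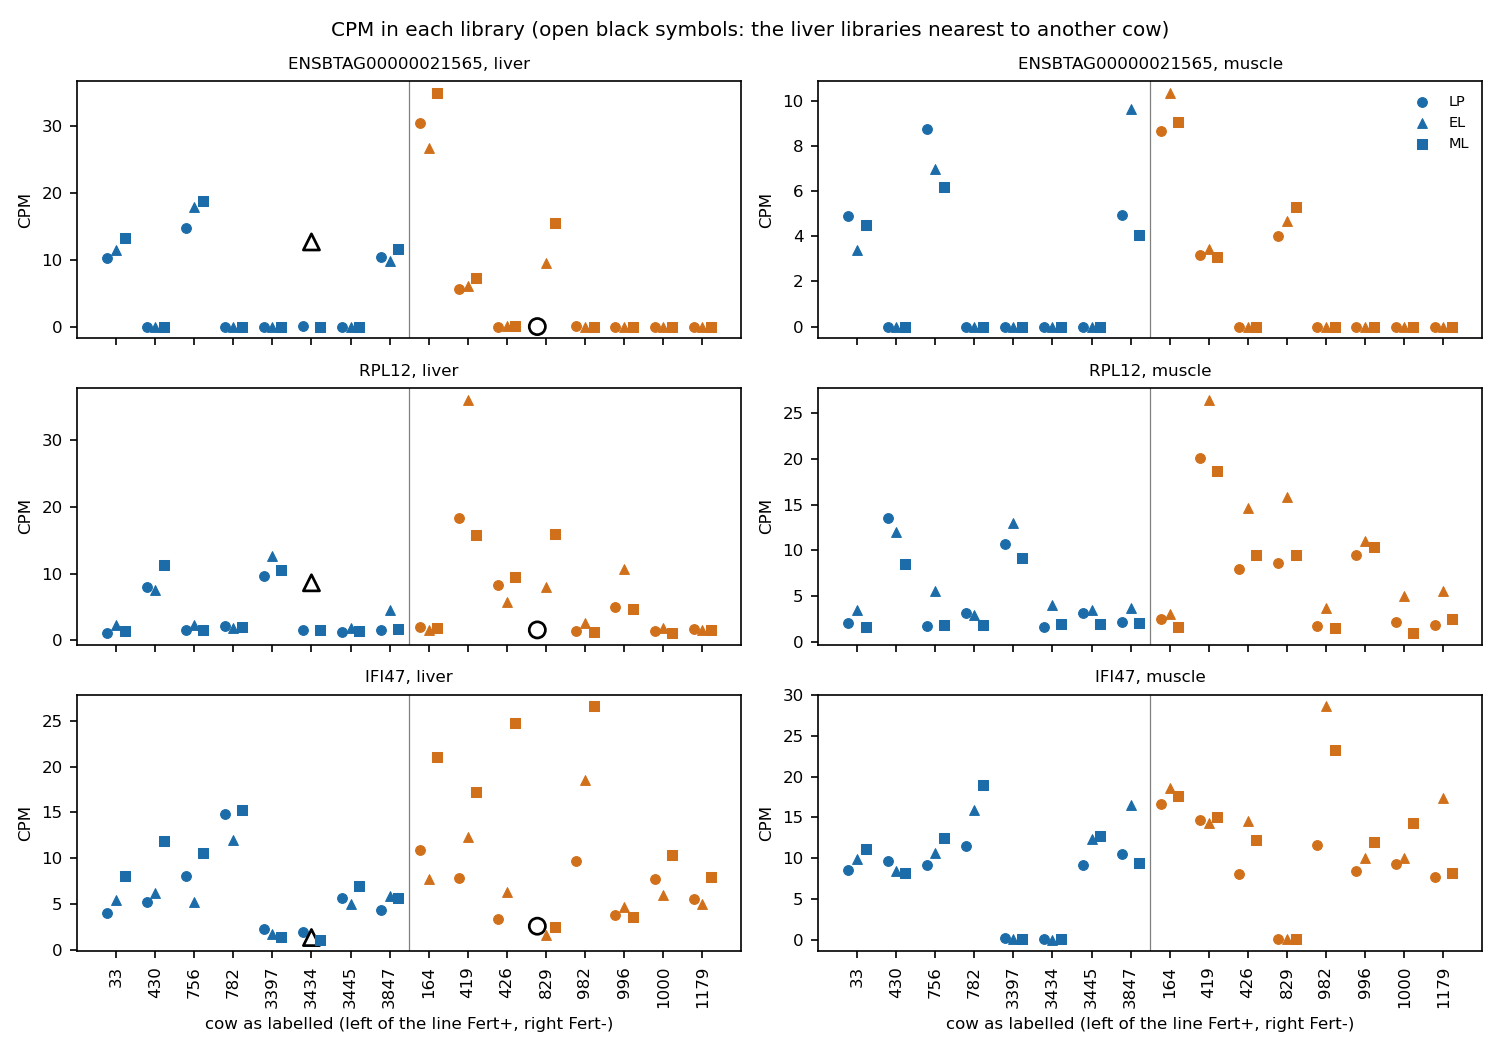
CPM of ENSBTAG00000021565, RPL12 and IFI47 in each library of each cow, with LP as circles, EL as triangles and ML as squares. The open black marks are the liver libraries labelled cow 829 at LP and cow 3434 at EL, and apart from them the 3 libraries of a cow lie on the same side in ENSBTAG00000021565 and in IFI47.

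Among the members without a symbol, ENSBTAG00000047547 was expressed strongly in most cows and weakly in a few (r = 0.937, SE 0.041). In liver its CPM was 31.4, 1.61, 21.2, 13.7, 17.8, 32.1, 17.1 and 6.27 in the Fert+ cows. Among Fert- cows the values were 38.3, 27.8, 29.99, 35.6, 3.33, 23.7, 10.6 and 13.8. Muscle of Fert+ cows had 22.8, 2.13, 23.2, 21.8, 23.99, 46.5, 27.5 and 2.79 CPM. Fert- cows had 68.0, 35.6, 42.0, 53.1, 4.63, 49.4, 25.4 and 28.5 CPM. Cows 430, 3847 and 982 were the 3 lowest in both tissues, and cow 164 was the highest.

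ENSBTAG00000011976 was a muscle gene in these samples, and its r was 0.830 (SE 0.104). Its muscle CPM was 9.44, 0.621, 8.84, 10.4, 17.2, 13.4, 13.5 and 32.4 in the Fert+ cows. In Fert- cows it was 20.8, 0.887, 9.86, 13.0, 0.564, 17.7, 17.0 and 18.5. In liver the Fert+ cows had 1.61, 0.0409, 2.18, 0.499, 3.11, 1.70, 0.676 and 1.83 CPM. For Fert- cows the CPM was 1.67, 0.0986, 0.746, 1.51, 0.0585, 2.07, 1.74 and 1.48. Cows 430, 419 and 982 were lowest in both tissues, at 1.44 CPM or less in each muscle library and 0.251 CPM or less in each liver library. The other libraries had at least 6.97 CPM in muscle and 0.270 CPM in liver, where 0.270 CPM was 5 read pairs.

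ENSBTAG00000012208 stood out for a single cow (r = 0.930, SE 0.064). In liver its CPM was 16.2, 12.8, 8.80, 15.3, 13.5, 9.81, 4.59 and 7.80 in the Fert+ cows. The Fert- cows had 49.4, 16.04, 2.51, 9.57, 7.75, 8.30, 11.4 and 8.36 CPM. In muscle the Fert+ cows had 3.23, 2.41, 1.74, 3.27, 4.45, 3.38, 1.35 and 2.94 CPM. Among Fert- cows the values were 13.4, 5.86, 0.190, 1.97, 2.56, 3.54, 4.51 and 2.52. Cow 164 was the highest and cow 426 the lowest in both tissues, and without cow 164 the r was 0.878.

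ENSBTAG00000008913 was a liver gene counted near the level filter in muscle (r = 0.920, SE 0.040). In liver its CPM was 29.4, 27.7, 8.47, 36.0, 13.3, 10.6, 25.8 and 22.6 in the Fert+ cows. Fert- cows had 9.86, 27.9, 43.0, 13.3, 8.50, 11.8, 24.8 and 30.6 CPM. Muscle of Fert+ cows had 1.68, 1.71, 0.496, 2.17, 0.8005, 0.313, 2.03 and 2.04 CPM. In Fert- cows it was 0.755, 1.53, 2.003, 0.544, 0.403, 0.486, 1.53 and 1.66. Cows 756, 3397, 3434, 164, 829, 982 and 996 were the 7 lowest in both tissues.

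Further members with high correlation were ENSBTAG00000006770 (r = 0.908) and ENSBTAG00000039520 (r = 0.908). ENSBTAG00000006770 ranged from 1.37 to 5.39 CPM in liver and from 1.64 to 5.30 CPM in muscle. ENSBTAG00000039520 ranged from 2.63 to 11.8 CPM in liver and from 0.0591 to 2.64 CPM in muscle, and cow 1179 lay below its largest gap in liver. ENSBTAG00000011622 (r = 0.894) kept a narrow range, 2.29 to 4.98 CPM in liver and 8.85 to 20.7 CPM in muscle. ENSBTAG00000008959 (r = 0.891) lay between 0.743 and 6.72 CPM in liver and between 0.193 and 2.83 CPM in muscle.

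ENSBTAG00000004343 (r = 0.899) had the same 3 cows below its largest gap in both tissues, cows 3397, 419 and 982. ENSBTAG00000037527 (r = 0.887) was low in cow 782 in both tissues, with 0.668 CPM in liver and 0.385 CPM in muscle, the lowest of 16 cows. ENSBTAG00000037937 (r = 0.880) was highest in cow 982, with 21.6 CPM in liver and 18.0 CPM in muscle. In all, 8 of 36 members had exactly the same cows below the largest gap between neighbouring cows in both tissues. These were ENSBTAG00000012208, ENSBTAG00000008913, RPS23, ENSBTAG00000004343, ENSBTAG00000011622, IFI47, ENSBTAG00000037527 and BOLA-NC. ENSBTAG00000004815 (r = 0.826) and ENSBTAG00000038112 (r = 0.868, and 0.808 without the 2 liver libraries nearest to another cow) had different cows at the gap in the 2 tissues.

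At the limit of the rule, ENSBTAG00000001666 (r = 0.803), ENSBTAG00000002655 (r = 0.802) and BOLA-NC (r = 0.801) were just inside. Just outside were ENSBTAG00000039275 (r = 0.79997), ENSBTAG00000020710 (r = 0.799) and UCHL1 (r = 0.795), a ubiquitin hydrolase. UCHL1 was high in cow 430, with 15.4 CPM in liver and 175 CPM in muscle, while the other cows had at most 3.16 CPM in liver and 19.1 CPM in muscle. Of the 36 members, 17 stayed above 0.8 with each cow left out in turn, and 34 without the 2 liver libraries nearest to another cow. Without them ENSBTAG00000005146 had an r of 0.7997 and ENSBTAG00000001666 an r of 0.783, and 40 genes in all exceeded 0.8.

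Several members depended on cow 3847, without which 30 of 36 stayed above 0.8. It had the highest level of ENSBTAG00000008926 (41.4 CPM in liver, 42.1 CPM in muscle), ENSBTAG00000002716 (26.3 and 31.9 CPM), ENSBTAG00000004059 (22.3 and 14.03 CPM) and ENSBTAG00000000725 (8.17 and 8.53 CPM). For ENSBTAG00000001666 it was the highest in liver (9.74 CPM) and next to cow 419 in muscle (5.04 against 5.11 CPM). Without cow 3847 the r of these 5 genes was 0.781, 0.775, 0.792, 0.739 and 0.703, in the order named. ENSBTAG00000031059, for which cow 3847 was the lowest in liver (1.07 CPM), also fell to 0.792 without it. With TMM factors in place of library totals their r was 0.789, 0.807, 0.897, 0.650 and 0.644, while ENSBTAG00000047088 and ENSBTAG00000045784 also fell below 0.8 (0.798 and 0.733), and 31 of 36 members stayed above it. The liver libraries of cow 3847 at EL and ML belonged to a set of 13 that counted genes absent from most libraries. Without that set the r of the 5 genes was 0.512, 0.692, 0.796, 0.872 and 0.739, lower in 4 and higher in ENSBTAG00000000725. Leaving out the set also leaves out cow 419, and the liver of cow 3847 then rests on LP alone.

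Members differed in how far a cow kept its level over the time-points. After removing the mean of each group, the share of variance between libraries that lay between cows had a median of 68.1% in liver and 75.8% in muscle over the members. Over all genes it was 11.8% and 19.6%. A high r needs a difference between cows, so this is a description. In ENSBTAG00000021565 the share was 85.3% in liver (99.8% without cows 829 and 3434) and 98.5% in muscle. It exceeded 50% in 24 members in liver and in 30 in muscle. The lowest shares were those of ENSBTAG00000008926 in liver (-13.0%) and ENSBTAG00000000725 in muscle (3.42%). A negative estimate means that the cow means differed less than the spread within cows alone would give. ENSBTAG00000008926 had 25.4% in muscle and ENSBTAG00000000725 had 19.7% in liver, while IFI27 had 10.6% in muscle. ENSBTAG00000001666 had 0.255% in liver and 9.88% in muscle, below the median of all genes in both tissues, which goes against calling its expression cow-specific.

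**Figure D4:**
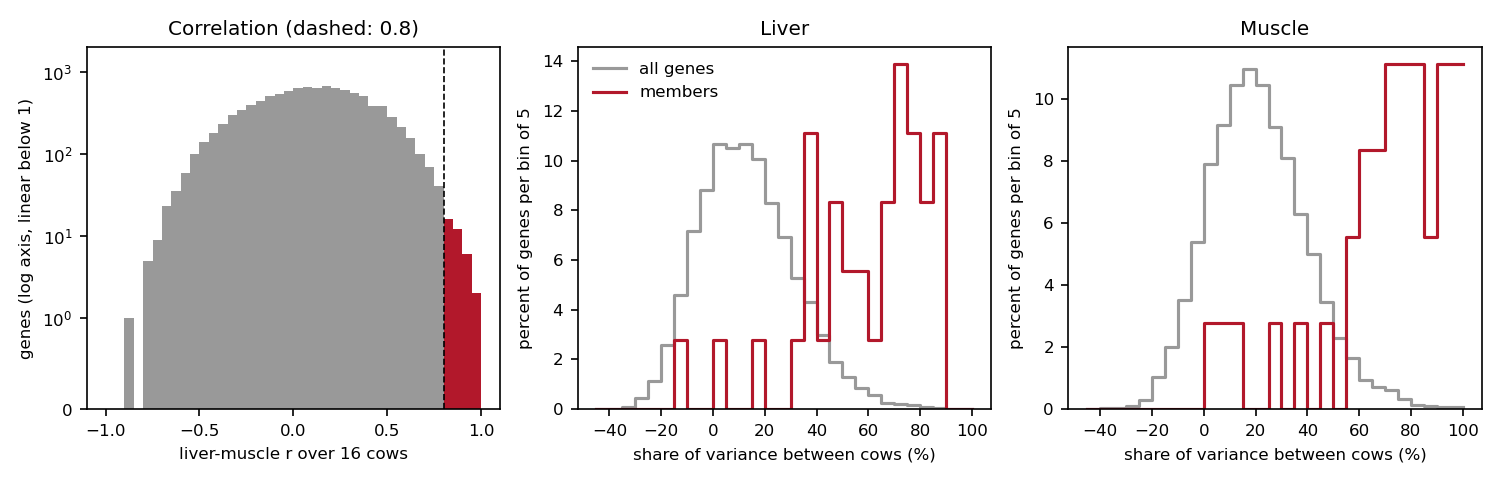
Number of genes by correlation between liver and muscle over 16 cows (log axis, dashed line at 0.8) and the share of variance between cows in each tissue for members and for all genes. Most members lie above 50% and most other genes below.

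The correlations between tissues at single time-points are parts of the average that chose the members, so their height over the members is a description and supports nothing. Between liver and muscle at the same time-point the median r over members was 0.735 within LP, 0.642 within EL and 0.765 within ML. At different time-points the median lay between 0.649 and 0.753. Over all genes the same medians lay between -0.006 and 0.189. Without cows 829 and 3434 the medians over members lay between 0.652 and 0.774 for the 9 pairs of time-points. The change of a cow from LP to EL in liver had a median r with its change in muscle of 0.084 over members, beside 0.061 over all genes. For the change from LP to ML the median was 0.054 beside 0.079, and no member exceeded 0.8 in either.

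The members did not form a single group of cows. Of 630 pairs of members none had an absolute correlation above 0.8 in both tissues and 4 had one above 0.6. These 4 pairs joined ENSBTAG00000038112 and ENSBTAG00000037937 each with ENOSF1, ENSBTAG00000008926 with ENSBTAG00000000725, and ENSBTAG00000047547 with ENSBTAG00000002655. The median absolute r between members was 0.211 in liver and 0.204 in muscle, over 16 cows and without a test.

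Gene lists of pathways and cell types were set beside the members, with no test of any list. Genes were found only by symbol, which covered 8 of 31 interferon-stimulated, 5 of 19 antigen presentation and 2 of 18 circadian clock genes. Of the 8 interferon-stimulated genes found, 7 passed the level filter and 1 was a member (IFI27). The median r of the list was 0.461 beside 0.103 for all genes, most of which carry no symbol here. Of the antigen presentation list 5 genes passed and none was a member (median r 0.122). Of detoxification and conjugation enzymes 16 passed and none was a member (median r 0.216), with GSTT1 highest at 0.748. Of circadian clock genes 2 passed (median r 0.471), and of heat shock and immediate early genes 9 passed (median r -0.063), with no member in either. Of the hepatocyte list 9 genes passed (median r 0.063) and of the muscle fibre list none. The list to which IFI27 belongs moved with it, with r between IFI27 and the summed rest of the list of 0.819 in liver and 0.765 in muscle.

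The few erythroid genes found were counted at low levels, and the leukocyte genes found were higher, above all in liver. The erythroid list named 13 genes, of which 3 were found by symbol and none passed the level filter. Their summed level was 0.127 to 24.2 CPM in liver and 0 to 5.64 CPM in muscle. ENSBTAG00000001858 was the member correlated with this sum above 0.6 in both tissues (0.663 in liver, 0.649 in muscle). For ENSBTAG00000021565 the values were 0.731 and 0.581. The value of largest size was that of ENSBTAG00000038112 in muscle, at -0.810, with -0.138 in liver. The leukocyte list named 23 genes, of which 6 were found and 1 passed (r = 0.061). Their summed level was 19.1 to 286 CPM in liver (median 36.3) and 2.07 to 26.7 CPM in muscle. No member correlated with the leukocyte sum above 0.6 in both tissues. Most genes of these lists were not found by symbol, so the sums cover only a part of each list. The part of blood or leukocytes in the members' values was not tested.

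A set of 13 libraries, 8 of liver and 5 of muscle from 7 cows, counted 11 to 17 of 19 genes of which no other library counted more than 3, and only cow 419 had such libraries in both tissues. Cow 419 is the highest cow for RPL12, BOLA-NC and, in liver, RPS23. Cows 33, 756, 3847, 164, 419 and 829, which counted ENSBTAG00000021565 in muscle, are all among the 7. This gene meets the rule for the 19 genes, a median of at most 2 and a highest count of at least 50 in each tissue. It was counted in each muscle library of those cows, within the set or not. Its r without the set was 0.951, and how it is linked to the set was not tested. Without these libraries 29 of 36 members stayed above 0.8. All muscle libraries of cow 419 are in the set, so these r leave that cow out. The liver of cow 33 then rests on ML alone, and the liver of cow 3847 and the muscle of cow 164 on LP alone. ENSBTAG00000045784 fell to 0.656. RPL12 had an r of 0.930 and RPS23 of 0.940 without the set.

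The first comparison of the design is that of genotypes, which asks whether cows of good and poor genetic merit for fertility differ. The rule subtracted the mean of each fertility group, so it did not use this difference. Counts of a cow were summed over its 3 libraries and tested for all genes with edgeR's quasi-likelihood test and Benjamini-Hochberg adjustment. ENSBTAG00000021565 did not pass the filter on low counts of this test, and 35 members were tested in each tissue. None was differentially expressed (DE) in liver (0.0% of 14369 genes were) and none in muscle (0.0% of 13396 genes). At an unadjusted p under 0.05 there were 7 members in liver, beside 15.2% of all genes, and 3 in muscle, beside 10.8% of all genes. By the DESeq2 Wald test 1 member (COX7C) passed in liver, where 1.2% of all genes did, and none in muscle, where 0.515% did. By an exact test with a common dispersion 7 members passed in liver, beside 3.51% of all genes, and 9 in muscle, beside 3.02%. That test takes the same spread between cows for every gene, while the members spread more than all genes. Its counts therefore cannot show a difference of genotypes in the members.

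In liver the members with the smallest p were COX7C and ENSBTAG00000005146. COX7C had 13.7 ± 6.78 CPM over Fert+ cows against 26.7 ± 10.7 CPM over Fert- cows (SD, n = 8), a log2 fold change of -1.002 (SE 0.30) with an adjusted p of 0.202 by edgeR's quasi-likelihood test. Of the 8 Fert+ cows 1 lay above the Fert- median. Without the 2 liver libraries nearest to another cow the fold change was -1.18 with an adjusted p of 0.192. In muscle COX7C had 35.9 ± 14.9 CPM over Fert+ against 54.9 ± 22.4 CPM over Fert- cows, a log2 fold change of -0.51 (SE 0.27) with an adjusted p of 0.527 by the same test.

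ENSBTAG00000005146, which the study's sheets tag as an MHC or immunoglobulin gene, averaged 100.9 ± 41.2 CPM in liver of Fert+ and 158 ± 29.1 CPM in liver of Fert- cows (SD, n = 8). The log2 fold change was -0.70 (SE 0.21), with an adjusted p of 0.202 by edgeR's quasi-likelihood test. Without the 2 liver libraries nearest to another cow it was -0.80, with an adjusted p of 0.179 by the same test. In muscle it had 36.7 ± 14.1 and 58.3 ± 6.88 CPM, a log2 fold change of -0.56 (SE 0.19) with an adjusted p of 0.296 by the same test. ENSBTAG00000037937 in muscle had 2.43 ± 1.295 and 6.47 ± 5.39 CPM, a log2 fold change of -1.26 (SE 0.44) with an adjusted p of 0.326. The genotypes overlapped in these genes and in each of the other members tested.

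Over the members the median log2 fold change between genotypes was 0.03 in liver and -0.08 in muscle, beside -0.0020 and -0.0068 over all genes. Of 35 members 20 were higher in Fert+ cows in liver and 15 in muscle, none past the threshold.

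**Figure D5:**
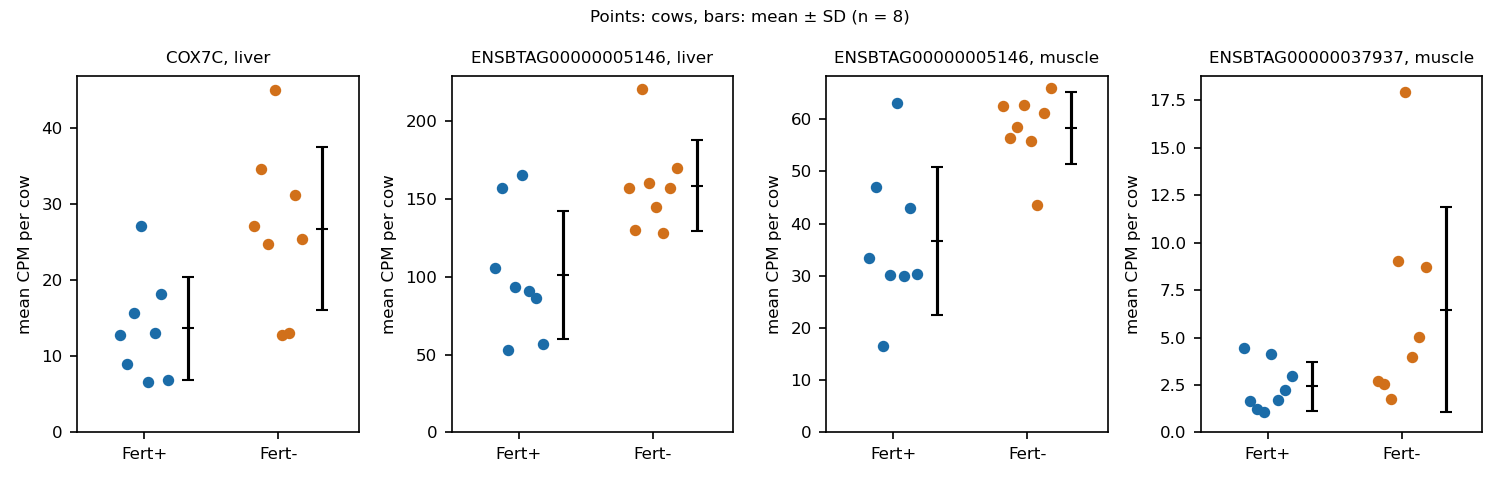
CPM per cow in Fert+ and Fert- cows for COX7C in liver, ENSBTAG00000005146 in liver and muscle and ENSBTAG00000037937 in muscle, with mean and SD of 8 cows per genotype. The Fert- means are higher in each panel and the points of the genotypes overlap.

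The second comparison asks which members changed over the time-points. The rule averaged over LP, EL and ML and so did not use these changes. In the fit over the 48 libraries of a tissue, 3 of 36 members were DE between time-points in liver, where 34.4% of all genes were. In muscle 8 of 36 were, beside 62.6% of all genes. The fit has no cow term, so differences between cows count as error, and the members were chosen with large ones. Its low counts are therefore no result about the members. Each cow was sampled at every time-point, and with the cow as a block 15 members were DE in liver (38.8% of all genes) and 25 in muscle (67.2% of all genes). Without the 2 liver libraries nearest to another cow 5 members were DE in liver (37.9% of all genes), and 15 with the block (41.1% of all genes). With the LP and EL liver libraries of cow 426 also left out, the blocked fit called 19 members (39.9% of all genes). Scaling matters for direction in muscle, where the median gene moved by 0.36 from LP to EL on library totals and by 0.05 with TMM factors (log2). The values below are on TMM factors and, unless the block is named, from the fit without it.

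NMNAT2 fell at EL in muscle, from 2.32 ± 0.833 CPM at LP to 0.981 ± 0.538 CPM at EL, and was 2.62 ± 1.05 CPM at ML (SD, n = 16). Its log2 fold change from LP to EL was -1.35 (adjusted p = 3.55e-08 by edgeR's quasi-likelihood test). ENSBTAG00000008926 rose in muscle from 20.4 ± 5.64 to 36.1 ± 15.3 CPM, a log2 fold change of 0.82 (adjusted p = 1.33e-06 by the same test), and was 20.3 ± 2.98 CPM at ML. COX7C fell in muscle from 51.1 to 34.7 CPM (log2 fold change -0.55, adjusted p = 0.0237 by edgeR's quasi-likelihood test) and was 52.0 CPM at ML.

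Of the 8 members DE in muscle 4 were higher at EL than at LP and 4 lower. ENSBTAG00000000725, ENSBTAG00000001666 and ENSBTAG00000011622 rose by 0.47, 0.53 and 0.40 on the log2 scale. ENSBTAG00000002655 fell by 0.63 and ENSBTAG00000005146 fell by 0.35 on the log2 scale.

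The 3 members DE in liver were ENSBTAG00000004059, ENSBTAG00000001666 and ENSBTAG00000000725. ENSBTAG00000004059 rose from 11.8 CPM at LP to 15.7 CPM at EL, with 11.9 CPM at ML, a log2 fold change of 0.41 at EL with an adjusted p of 0.0436 by edgeR's quasi-likelihood test. ENSBTAG00000001666 was 5.12, 6.22 and 3.84 CPM, with log2 fold changes against LP of 0.21 at EL and -0.42 at ML (adjusted p = 0.00822 by the same test). ENSBTAG00000000725 was 5.01, 5.52 and 4.03 CPM, with log2 fold changes against LP of 0.11 and -0.30 (adjusted p = 0.0181 by the same test). Its EL value turned to -0.048 without the libraries that count extra genes, so its direction at EL in liver depends on them. Without the 2 liver libraries nearest to another cow the EL values of the 3 genes were 0.44, 0.23 and 0.13, with adjusted p of 0.0224, 0.00507 and 0.0167 by the same test.

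The members with the clearest cow sets did not pass the time-point test without the block. ENSBTAG00000021565 had a mean of 4.46, 6.15 and 5.86 CPM at LP, EL and ML in liver and 2.30, 2.05 and 2.29 CPM in muscle, with SDs over cows of 3.08 to 9.45 CPM. With the cow as a block, RPL12 was DE in liver (adjusted p = 0.0378) and muscle (adjusted p = 0.0029) and IFI47 in liver (adjusted p = 0.0028) and muscle (adjusted p = 0.0014) by edgeR's quasi-likelihood test. Without the 2 liver libraries nearest to another cow the blocked adjusted p of RPL12 in liver was 0.0587 by the same test. IFI47 was 6.19, 6.79 and 10.2 CPM at LP, EL and ML in liver and 9.03, 9.81 and 12.2 CPM in muscle. In muscle those differences were smaller than the gap between cows 3397, 3434 and 829 and the other cows.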

How the data were processed

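RNA-seq counts of read pairs per Ensembl70 gene (UMD3.1) were used as the authors deposited them, with no normalization, for 96 libraries of liver and muscle. Per the labels and the study's methods, polyA RNA was made into unstranded libraries, base calls came from CASAVA 1.8, reads were trimmed with Trimmomatic and aligned with STAR, proper pairs were kept with Samtools, and counts were made with featureCounts. By the study's methods a count is a read pair that mapped to a single annotated gene. Strand was not kept, so a pair from an antisense transcript can be counted at the gene opposite. Reads of near-identical copies can be counted at either copy. Cow, genotype, tissue and time-point came from the labels. Another 96 count columns without sample names were not used. Symbols were taken from the names that the study paired with identifiers (2161 identifiers). Positions and sequences were not used here.

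CPM was computed on library totals. The members and the gene lists were chosen with earlier results of these data known. The lists were interferon-stimulated genes, antigen presentation, detoxification and conjugation, circadian clock, erythroid, leukocyte, hepatocyte, muscle fibre, and heat shock and immediate early genes. Genes were named by rule: the 12 members with the highest r, the 8 others with the largest spread over cows, 3 genes on each side of the limit, the 2 with the smallest p of each test and tissue, and members on a list. Other members are named where a change of setting concerns them and were chosen after their values were seen.

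Genotypes were compared on counts summed per cow, and time-points (any difference between LP, EL and ML) over the 48 libraries of a tissue, with edgeR 4.0.16 (two-sided quasi-likelihood tests with TMM, filterByExpr, Benjamini-Hochberg adjustment over all genes, threshold 0.05) under R 4.3.3 with limma 3.58.1. DESeq2 1.42.0 was an alternative, as were other scalings, filters, pseudocounts and correlations, each cow left out, and the libraries that count 19 extra genes. The fits without the liver libraries labelled cow 829 at LP and cow 3434 at EL, and without the LP and EL liver libraries of cow 426, were added after seeing the data. Standard errors of fold changes were derived from the F statistic. The fits were tested on simulated data. Tables and figures used Python 3.11.15, numpy 2.4.6, pandas 2.3.3 and matplotlib 3.10.9.

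Libraries with the same cow number come from the same animal by the labels. Once genotype by time-point means were subtracted, 39 of 48 liver pairs and 42 of 48 muscle pairs of the same cow correlated above 0.1 (median 0.240 and 0.262). None of 336 pairs of libraries within a group held identical counts. Parity, sire and day of sampling of single cows were not analysed here.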

Additional observations from a re-analysis of the deposited data

Results flagged for a closer look

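Of 116 groups of 8 cows examined, 1 for each named gene, tissue and genotype, 19 held a cow whose gap to its nearest neighbour exceeded Dixon's 95% critical value. Chance flags about 1 in 20 groups, but the genes were named for a high r and a large spread over cows, both of which a single extreme cow raises, so that rate does not apply to them. The same cow lay apart in both tissues for 4 genes. RPL12 was highest in cow 419 among Fert- cows, with 23.4 CPM in liver and 21.8 CPM in muscle, and the next cows had 8.44 and 11.3 CPM. ENSBTAG00000012208 was highest in cow 164 among Fert- cows, with 49.4 CPM in liver and 13.4 CPM in muscle. ENSBTAG00000037937 was highest in cow 982 among Fert- cows, with 21.6 CPM in liver and 18.0 CPM in muscle. UCHL1, just outside the rule, was highest in cow 430 among Fert+ cows, with 15.4 CPM in liver and 175 CPM in muscle, where the next cows had 3.16 and 11.8 CPM.

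Other cows lay apart in a single tissue. In liver these were cow 164 for ENSBTAG00000021565 (30.7 CPM), cow 419 for RPS23 (83.8 CPM), cow 426 for ENSBTAG00000005146 (221 CPM), cow 3397 for ENSBTAG00000004815 (48.5 CPM) and for IFI27 (184 CPM), and cow 3847 for ENSBTAG00000000725 (8.17 CPM), each the highest of its genotype. In muscle cow 419 was highest for BOLA-NC (41.7 CPM), cow 3847 highest for ENSBTAG00000001666 (5.04 CPM) and cow 1179 highest for NMNAT2 (2.99 CPM). Cow 3847 was lowest for NMNAT2 in muscle (0.816 CPM) and cow 996 lowest for ENSBTAG00000005146 in muscle (43.5 CPM). Cows 419, 164 and 3847 held 10 of the 19.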

How the results depend on the processing

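The number of members depended on scaling, filter and limit. It was 36 as reported, 78 with TMM factors (31 shared), 81 with RLE factors (32 shared), 16 at a mean CPM of at least 5, 99 without a level filter, 145 at r above 0.7, 8 at r above 0.9, and 21 at ML alone (12 shared). It lay between 37 and 49 with each cow left out, and was 35 by rank correlation (20 shared), 52 without the libraries that count extra genes (29 shared) and 40 without the 2 liver libraries nearest to another cow (34 shared). At ML alone the r of ENSBTAG00000001666 was -0.061 and that of ENSBTAG00000000725 was -0.080. For the other genes that fell below 0.8 without cow 3847, r at ML alone was 0.0017 for ENSBTAG00000008926 and 0.154 for ENSBTAG00000004059. It was 0.788 for ENSBTAG00000002716 and 0.714 for ENSBTAG00000031059. Of the members DE between genotypes, 0 as reported and 0 with each cow left out, there were 7 in liver and 9 in muscle by the exact test with a common dispersion (3.51% and 3.02% of all genes) and 1 in liver by DESeq2 (1.2% of all genes). The exact test takes the same spread for every gene, and the members spread more between cows than all genes. For COX7C in liver the adjusted p lay between 4.27e-06 and 0.275 over the alternatives. With the replicate block (cow) the members DE over time-points went from 3 to 15 in liver and from 8 to 25 in muscle. In liver there were 5 without the 2 libraries (37.9% of all genes), 15 with the replicate block and without them (41.1%), and 19 with the replicate block and also without the LP and EL libraries of cow 426 (39.9%). With each cow left out the number lay between 2 and 5 in liver (5 without cow 3434) and between 7 and 11 in muscle. The log2 fold change of ENSBTAG00000000725 from LP to EL in liver was 0.11 and turned to -0.048 without the libraries that count extra genes. The cause of these changes was not tested. Of the other comparisons with an alternative, 104 counts stayed within 1.5 times the reported one, and 838 single values kept their direction within the error or their side of the threshold, 87 moved by more than their error and 5 passed the threshold. Levels near 1 CPM rest on about 20 read pairs a library. Among others this limits NMNAT2, ENSBTAG00000008913, ENSBTAG00000039520 (mean 1.17 CPM) and ENSBTAG00000008959 (mean 1.18 CPM) in muscle and ENSBTAG00000011976 in liver.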
